A study of Homo sapiens with 12 samples.

Results

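Transcript levels of 7 drug efflux transporters of the ATP-binding cassette (ABC) superfamily were followed in ovarian cancer cells exposed to THZ1, a covalent inhibitor of CDK7 and related transcriptional kinases. The transporters, ABCB1, ABCC1, ABCC2, ABCC3, ABCC4, ABCC5 and ABCG2, were chosen by name as pumps able to lower a cell's exposure to an inhibitor, and each has a row among the 23621 gene rows of both tables. Of the 7, 5 were among the 14251 active genes, defined as those above 1 FPKM (read fragments scaled to transcript length and library size) in at least 1 of the 12 libraries. ABCB1 and ABCC2 stayed below 1 FPKM in all 12. Polyadenylated RNA was sequenced from KURAMOCHI (Ku) and COV362 (Cov) cells, human ovarian cancer lines recorded as untransduced controls, after 6 hr in DMSO, the vehicle, or in THZ1 at 50 nM or 250 nM. Each of the 6 groups held 2 libraries. Ku cells were grown in RPMI and Cov cells in DMEM, so the line and its medium cannot be told apart. Nothing in the labels says that the 2 libraries of a group came from separate cultures, and the p-values then measure only the spread between these libraries.

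ABC transporters couple ATP hydrolysis in a pair of nucleotide-binding domains to the movement of a substrate through their membrane domains. P-glycoprotein, encoded by ABCB1, and the dimeric transporter encoded by ABCG2 export a wide range of hydrophobic and planar drugs, whereas the multidrug resistance proteins of the ABCC subfamily export organic anions, often as glutathione, glucuronide or sulfate conjugates, or cyclic nucleotides and nucleotide analogs. These pumps are studied in ovarian cancer because they can lower the intracellular level of taxanes and other drugs.

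The values are FPKM that were scaled to synthetic RNAs added per cell number, so they follow RNA per counted cell, and in bulk libraries fewer cells with a transcript and less of it in each cell cannot be told apart. The median active gene lay between 2.84 and 12.8 FPKM in the Ku libraries and between 3.27 and 14.4 FPKM in the Cov libraries, lowest at 250 nM in both lines. No value is 0. Instead, 5276 gene rows in Ku and 4896 in Cov share the most frequent value of each library, called the floor here. The floor was 0.0783 to 0.119 FPKM in Ku and 0.0890 to 0.110 in Cov. It is not the lowest value. In Ku at 250 nM, SLC22A16 had a mean of 0.0798 FPKM, beside 0.0803 for ABCB1, which was at the floor. All 15 epithelial and ovarian carcinoma markers examined were active, with KRT8 at 2432 FPKM in Ku and 1133 in Cov and PAX8 at 136 and 124 FPKM in DMSO. WT1 was below 1 FPKM in Cov DMSO libraries (mean 0.653), and MUC16 and CDH1 were below 1 FPKM in Ku DMSO libraries (means 0.166 and 0.468). Of 15 markers of other cell types, 8 were active. The summed level of all 15 was 24.0 to 45.8 FPKM in Ku and 29.5 to 66.6 FPKM in Cov, and 7, including PTPRC, CD3E, MS4A1, DCN, ALB and PECAM1, stayed below 1 FPKM. Of the active ones, the endothelial gene CDH5 was at 8.23 FPKM in Ku and 7.75 in Cov DMSO libraries and VWF at 2.66 in Ku. The mesenchymal genes ACTA2 and COL3A1 were at 16.9 and 8.58 FPKM in Ku, COL1A2 was at 42.2 in Cov, and COL1A1 was at 2.53 and 3.17 in Ku and Cov. The macrophage gene CD68 was at 2.31 FPKM in Ku and 4.12 in Cov, and CD14 at 1.31 and 0.625. Both marker sums were highest in DMSO and lowest at 250 nM, and their part in the values below was not tested.

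The 7 genes lie on 7 different chromosomes in GRCh37, the build of the files. ABCC1 spans chr16:16042995-16237114 on the plus strand, ABCC3 spans chr17:48712138-48769614 on the plus strand, ABCC4 spans chr13:95672089-95953729 on the minus strand, and ABCC5 spans chr3:183637722-183735727 on the minus strand. ABCG2 spans chr4:89011302-89152780 on the minus strand, ABCC2 spans chr10:101542397-101612351 on the plus strand, and ABCB1 spans chr7:87132333-87342639 on the minus strand. They are long genes, from 57.5 kb (ABCC3) to 281.6 kb (ABCC4), beside a median of 31.4 kb over the matched active genes. None of the annotated genes that overlap them was active in these tables. Active genes longer than 100 kb (n = 2632) had a median difference of -1.06 at 250 nM against DMSO in Ku and -1.33 in Cov on the log2(FPKM + 1) scale, beside -1.11 and -1.31 over all active genes. Those of 50 to 100 kb (n = 2325), which is the range of ABCC2, ABCC3 and ABCC5, had -1.18 and -1.46.

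Promoter sequence is shown for ABCC4 and ABCC5, a pair of transporters expressed in both lines whose differences from DMSO were unlike at 50 nM in Cov cells. The 250 bases before the RefSeq start of each were read on the minus strand, at chr13:95953706-95953955 for ABCC4 and chr3:183735673-183735922 for ABCC5 (GRCh37), and each matched the genome at 1 place. Both windows reach into the first bases of the gene spans given above. Capitals mark a GC box, GGGCGG, which lies on the opposite strand and is read here as CCGCCC, and a TATA box.
ABCC4: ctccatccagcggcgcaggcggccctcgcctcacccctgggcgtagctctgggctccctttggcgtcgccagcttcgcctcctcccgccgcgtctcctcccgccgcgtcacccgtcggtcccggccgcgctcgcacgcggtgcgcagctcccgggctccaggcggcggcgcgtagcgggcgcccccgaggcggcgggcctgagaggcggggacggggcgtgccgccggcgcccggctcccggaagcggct
ABCC5: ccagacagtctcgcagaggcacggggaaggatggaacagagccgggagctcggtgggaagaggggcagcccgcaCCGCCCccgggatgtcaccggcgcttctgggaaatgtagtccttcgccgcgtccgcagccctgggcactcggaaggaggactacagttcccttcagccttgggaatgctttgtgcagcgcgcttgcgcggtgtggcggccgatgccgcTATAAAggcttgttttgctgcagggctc
The ABCC4 window was 80.4% G and C and held none of the 4 motifs searched on both strands, which were the E-box CACGTG, the TATA box with letters TATAAA, the CCAAT box and the GC box. The ABCC5 window was 64.8% G and C and held the GC box at position -176 and the TATA box at position -28 from the RefSeq start. The TATA box lies inside the ABCC5 gene span given above, and the GC box lies before that span. Over 34788 RefSeq windows of this length, 6.313% held the E-box, 10.77% the TATA box, 32.02% the CCAAT box and 42.58% the GC box. The GC box and the TATA box did not overlap.

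In DMSO, ABCC1 had the highest level of the 7 in both lines. ABCC1 encodes MRP1, which exports glutathione conjugates and a wide range of anticancer drugs, and it made up 40.6% and 42.9% of the summed FPKM of the 7 genes in the Ku DMSO libraries and 41.3% and 44.9% in the Cov DMSO libraries. In Ku cells ABCC1 was followed by ABCC5, ABCC3 and ABCC4, with means of 33.2 ± 1.88, 20.5 ± 3.18, 15.9 ± 1.13 and 9.34 ± 1.40 FPKM (SD, n = 2 each), and no neighbours in this order overlapped. In Cov cells the order was ABCC1, ABCC3, ABCC4 and ABCC5, with means of 30.7 ± 2.61, 17.4 ± 0.711, 10.6 ± 0.0586 and 9.87 ± 0.371 FPKM, again without overlap. ABCG2, ABCC2 and ABCB1 filled the last 3 places in both lines. ABCC2 and ABCG2 overlapped in Ku, and ABCG2 was above ABCC2 and ABCB1 in every Cov library. At 250 nM the order in Ku was kept among the first 4 except that ABCC5 and ABCC3 overlapped, whereas in Cov ABCC5 lay above ABCC4 at both doses. The tables of the lines were normalized separately, and differences between lines were not tested.

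**Figure D1:**
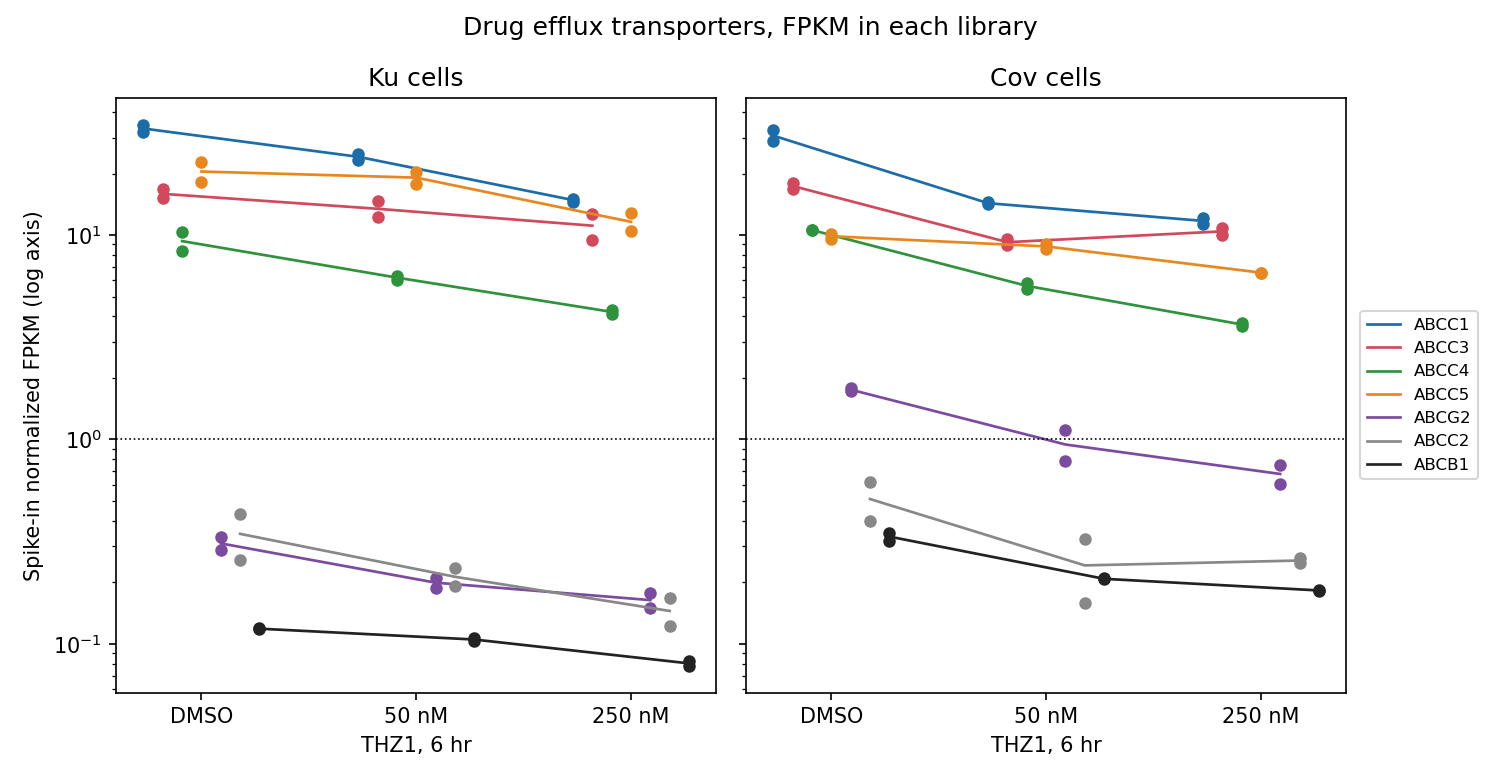
Spike-in normalized FPKM of the 7 transporters (log axis) by THZ1 dose in Ku cells (left) and Cov cells (right). Points are libraries, lines join the means of the 2 libraries, and the dotted line is 1 FPKM. ABCC1 is highest in every group (34.6 and 31.9 FPKM in Ku DMSO libraries), and ABCB1 and ABCC2 stay below 1 FPKM throughout. The downward slopes follow the spike-in scale and turn upward for most transporters under scalings without it.

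The tests compared each dose with DMSO, and the doses with each other, to ask which efflux pump transcripts were lower or higher in THZ1. A gene was called where limma gave a Benjamini-Hochberg adjusted p under 0.001 and a log2 difference beyond 0.5. The counts here are over ABCC1, ABCC3, ABCC4 and ABCC5. ABCG2 is kept out of them, because it passed the 1 FPKM minimum only through both Cov DMSO libraries and 1 Cov library at 50 nM and was below 1 FPKM in every Ku library. In Ku cells 0 of 4 were called lower at 50 nM (2 had an unadjusted limma p under 0.05), beside 11.3% of all active genes. At 250 nM in Ku, ABCC1 and ABCC4 fell, 2 of 4, beside 68.6% of all active genes. In Cov cells ABCC1, ABCC3 and ABCC4 fell at 50 nM, 3 of 4, beside 70.5%, and at 250 nM all 4 fell, beside 84%. With the replicate number as a block, ABCC3 and ABCC5 lost the call at 250 nM in Cov (limma adjusted p = 0.00114 and 0.00276). ABCC4 lost it at 250 nM in Ku (limma adjusted p = 0.00101). Between the doses in Ku all 4 differences were negative, but 1 of 4, ABCC1, was called lower (3 had an unadjusted limma p under 0.05), beside 36% of all active genes. In Cov 0 of 4 were called lower between the doses (3 had an unadjusted limma p under 0.05), beside 24.4%. ABCG2 was called lower in Cov at 250 nM alone, which is given as a description. The shares of all active genes moved with single libraries. When any Ku library was left out, the 1607 genes behind 11.3% became 6 to 131, and the 5132 behind 36% became 791 to 4599. The 9774 behind 68.6% became 6085 without Ku 250 nM replicate 1, the 10042 behind 70.5% became 4314 without Cov DMSO replicate 2, and the 3474 behind 24.4% became 1518 without Cov 250 nM replicate 2.

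No transporter was called higher in any of the 6 comparisons, and 0 had an unadjusted limma p under 0.05 with a positive difference. Genes called higher made up 0.0842% of the active genes in Ku at 50 nM, 0.0491% at 250 nM and 0.0421% between the doses. In Cov they made up 0.0772% at 50 nM, 0.105% at 250 nM and 0.0842% between the doses. The median difference of ABCC1, ABCC3, ABCC4 and ABCC5 on the log2(FPKM + 1) scale in Ku cells was -0.34 with 50 nM and -0.87 with 250 nM, beside -0.40 and -1.11 over all active genes. In Cov it was -0.82 and -0.999, beside -0.85 and -1.31. Between the doses it was -0.57 in Ku and -0.32 in Cov, beside -0.62 and -0.41. ABCG2 was left out of these medians after the data were seen. With it the Cov median at 250 nM was -0.72, which is its own value.

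These directions rest on the spike-in scale. With a median-of-ratios scaling, which centres the bulk of genes in each line, 0 transporters were called lower in any comparison and 1, ABCC5, was called higher at 250 nM in Cov. With all libraries of a line scaled to the same median FPKM, 0 were called lower, and at 250 nM 4 were called higher in Ku and 3 in Cov. Over all active genes the split at 250 nM in Ku was 9774 lower and 7 higher as deposited, 2708 and 1577 by median-of-ratios, and 1654 and 3831 by equal medians. In Cov it was 11971 and 15, 2694 and 1221, and 1611 and 3764. Each fall of a transporter given below is therefore printed with its value under these 2 scalings, in that order. A fall of a gene of another list is on the spike-in scale unless another scaling is named. The counts of the other lists keep genes whose means were above 1 FPKM in DMSO alone, among them SLC22A5, SLC46A1, ATP7A and PPARA. Those counts are given as a description.

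**Figure D2:**
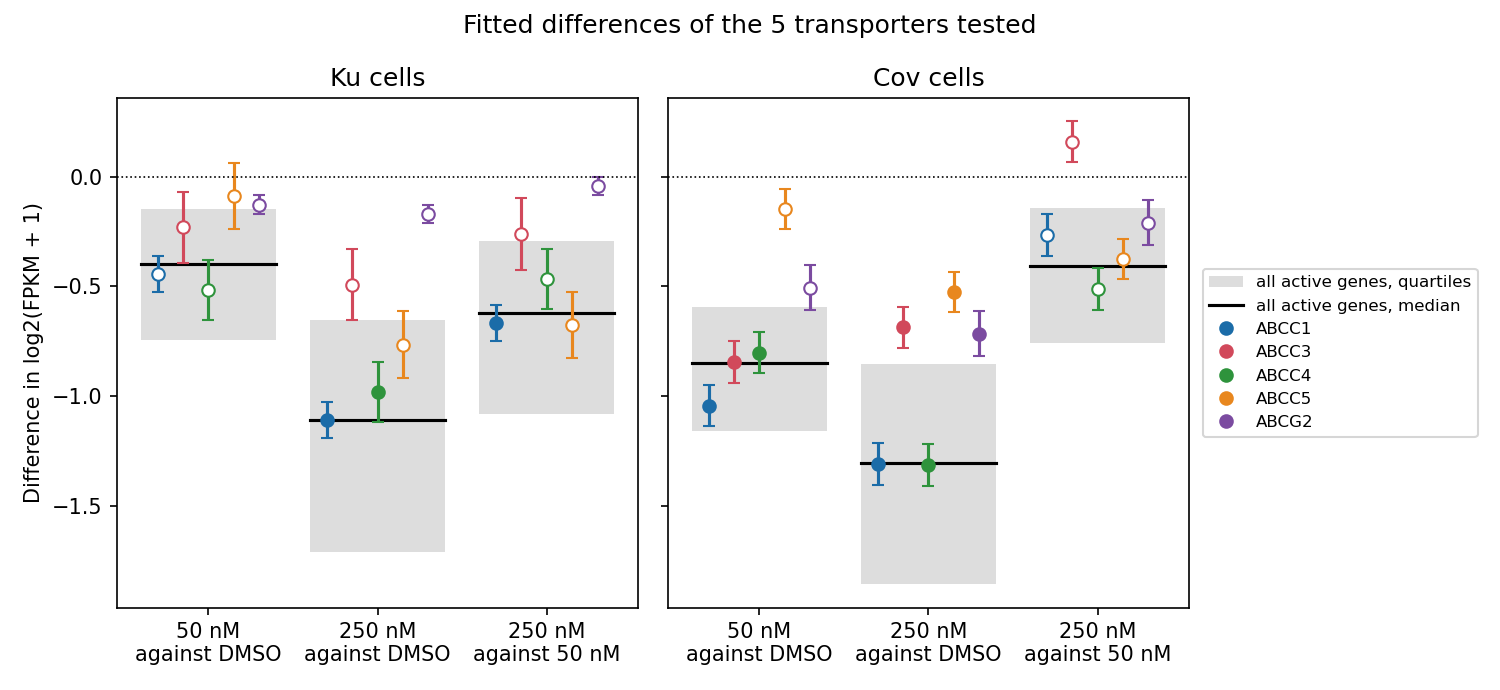
Difference in log2(FPKM + 1) of the 5 active transporters in each comparison, in Ku cells (left) and Cov cells (right), on the spike-in scale. Points are limma estimates with their standard error, filled where called. Grey boxes span the quartiles and black lines the median of all 14251 active genes. ABCC1 lies near the median at 250 nM in both lines on this scale, though above it with 0.1 added in place of 1, and ABCC5 lies above the upper quartile at 50 nM in both lines. All differences against DMSO are negative here, and nearly all turn positive under the 2 scalings without spike-ins.

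The differences of ABCC1 and ABCC4 from DMSO lay between the quartiles of all active genes at both doses in both lines. ABCC1 was at 34.6 and 31.9 FPKM in the Ku DMSO libraries, 25.04 and 23.3 at 50 nM, and 14.6 and 15.1 at 250 nM. Cov libraries had 28.8 and 32.5 FPKM in DMSO, 14.45 and 14.2 at 50 nM, and 11.3 and 12.1 at 250 nM. The groups did not overlap in either line, and every step up in dose held the lower libraries. At 250 nM the mean was 44.7% of that in DMSO in Ku and 38.3% in Cov.

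By limma on log2(FPKM + 1), ABCC1 fell at 250 nM by 1.11 (SE 0.0823, adjusted p = 4.25e-05) in Ku, and the difference turned to 0.28 and 0.79 under the 2 other scalings. In Cov it fell by 1.04 at 50 nM (SE 0.0951, adjusted p = 5.76e-05), with -0.06 and 0.12 under the other scalings, and at 250 nM, with -1.31 (adjusted p = 7.54e-06), turning to 0.22 and 0.66. At 50 nM in Ku its difference of -0.44 (adjusted p = 0.00583) was not called. Relative to the median of all active genes, the ABCC1 differences were -0.04 and 0.00 in Ku at 50 nM and 250 nM and -0.19 and 0.00 in Cov. At 250 nM this moved with the constant added and the minimum level. With 0.1 added in place of 1, ABCC1 lay above the median by 0.23 in Ku and 0.18 in Cov, and with a minimum of 10 FPKM by 0.18 and 0.19. Between the doses in Ku, ABCC1 fell by 0.67 (adjusted p = 0.00067, 0.19 and 0.55 under the other scalings), a call lost when any of the 6 Ku libraries was left out (limma adjusted p from 0.00105 to 0.00758). Where a library is left out, its group has 1 library, whose spread is assumed to be that of the other groups.

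ABCC4 encodes MRP4, an exporter of cyclic nucleotides, nucleotide analogs and prostaglandins. It was at 10.3 and 8.36 FPKM in the Ku DMSO libraries, 6.33 and 6.06 at 50 nM, and 4.30 and 4.12 at 250 nM. Its Cov values were 10.5 and 10.6 FPKM in DMSO, 5.44 and 5.85 at 50 nM, and 3.73 and 3.58 at 250 nM. The groups of both lines were stepped down by dose without overlap, to 45.1% of the DMSO mean in Ku and 34.5% in Cov at 250 nM. ABCC4 fell at 250 nM in Ku by 0.98 (SE 0.137, limma adjusted p = 0.000635, 0.27 and 0.73 under the other scalings). That call was lost when any Ku library other than DMSO replicate 2 was left out (adjusted p from 0.00185 to 0.00648). In Cov it fell by 0.80 at 50 nM (SE 0.0943, adjusted p = 0.000161, 0.10 and 0.27 under the other scalings) and at 250 nM, with -1.32 (adjusted p = 7.18e-06, 0.07 and 0.46 under the other scalings). The call at 50 nM was lost without DMSO replicate 1 (adjusted p = 0.00178) or 2 (0.00232), and that at 250 nM was kept without any of the 6 Cov libraries. At 50 nM in Ku the difference was -0.52 (SE 0.137, limma adjusted p = 0.0209), not called.

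ABCC3 encodes MRP3, which exports glucuronide conjugates and bile salts. It was at 16.7 and 15.1 FPKM in the Ku DMSO libraries, 14.7 and 12.2 at 50 nM, and 9.505 and 12.7 at 250 nM. The Cov libraries held 17.9 and 16.9 FPKM in DMSO, 9.52 and 8.94 at 50 nM, and 10.0 and 10.9 at 250 nM. In Cov both libraries at 250 nM lay above both at 50 nM, the only such case among the 5 transporters, and in Ku the treated groups overlapped. That difference of 0.16 (SE 0.0940, limma adjusted p = 0.183) was not called. It was 0.71 and 0.96 under the other scalings, and 96.2% of active genes had a lower value in the same comparison.

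In Cov cells ABCC3 fell by 0.85 at 50 nM (SE 0.0940, limma adjusted p = 0.000126, 0.11 and 0.28 under the other scalings) and at 250 nM, with -0.69 (adjusted p = 0.000234, 0.81 and 1.24 under the other scalings). The call at 50 nM was lost without DMSO replicate 1 (adjusted p = 0.00148) or 2 (0.00135). The call at 250 nM was lost without DMSO replicate 1 (0.00308), DMSO replicate 2 (0.00183) or 250 nM replicate 1 (0.00230). In Ku the differences of -0.23 at 50 nM and -0.49 at 250 nM (SE 0.163, limma adjusted p = 0.268 and 0.0273) were not called. Relative to the median of all active genes, ABCC3 was at 0.17 and 0.62 in Ku at 50 nM and 250 nM, and at 0.00 and 0.62 in Cov.

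ABCC5 encodes MRP5, another exporter of cyclic nucleotides and of nucleotide analogs. It was at 22.7 and 18.2 FPKM in the Ku DMSO libraries, 20.4 and 17.8 at 50 nM, and 10.4 and 12.8 at 250 nM. The Cov values were 10.1 and 9.61 FPKM in DMSO, 8.60 and 9.01 at 50 nM, and 6.55 in both libraries at 250 nM. The DMSO and 50 nM groups overlapped in Ku, and in Cov they were close but apart. At 50 nM the mean was 93.4% of that in DMSO in Ku and 89.2% in Cov, and at 250 nM it was 56.7% and 66.4%.

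At 50 nM the ABCC5 difference was -0.09 in Ku (SE 0.151, limma adjusted p = 0.644) and -0.15 in Cov (SE 0.0912, adjusted p = 0.156), neither called. Of all active genes, 80.1% had a lower difference than ABCC5 at 50 nM in Ku and 94.2% in Cov. At 250 nM ABCC5 fell in Cov by 0.53 (SE 0.0912, adjusted p = 0.000897, 0.90 and 1.31 under the other scalings), with 88.3% of active genes lower still. That call was lost without either Cov DMSO library (adjusted p = 0.0102 and 0.00577) or either library at 250 nM (0.00691 and 0.00692). In Ku its difference at 250 nM was -0.77 (SE 0.151, limma adjusted p = 0.00317), not called, and 0.60 and 1.10 under the other scalings.

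Ratios within a library do not depend on how libraries were scaled. The ratio of ABCC5 to ABCC1 in Cov was 0.352 and 0.296 in DMSO, 0.595 and 0.635 at 50 nM, and 0.577 and 0.540 at 250 nM. In Ku it was 0.657 and 0.571 in DMSO, 0.816 and 0.764 at 50 nM, and 0.715 and 0.848 at 250 nM. Both doses of both lines lay above DMSO without overlap. The mean log2 ratio was higher than in DMSO by 0.93 and 0.79 in Cov at 50 nM and 250 nM, and by 0.37 and 0.35 in Ku. For ABCC3 the ratio to ABCC1 was 0.484 and 0.474 in Ku DMSO and 0.651 and 0.844 at 250 nM, and 0.621 and 0.519 in Cov DMSO and 0.881 and 0.896 at 250 nM. For ABCC4 the ratio at 250 nM overlapped that in DMSO in both lines. At 50 nM it did not overlap, with a mean log2 ratio below that in DMSO in Ku (-0.13) and above it in Cov (0.19). With 2 libraries against 2 a two-sided exact permutation test cannot go below p = 0.333, so these ratios are given without a test.

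**Figure D3:**
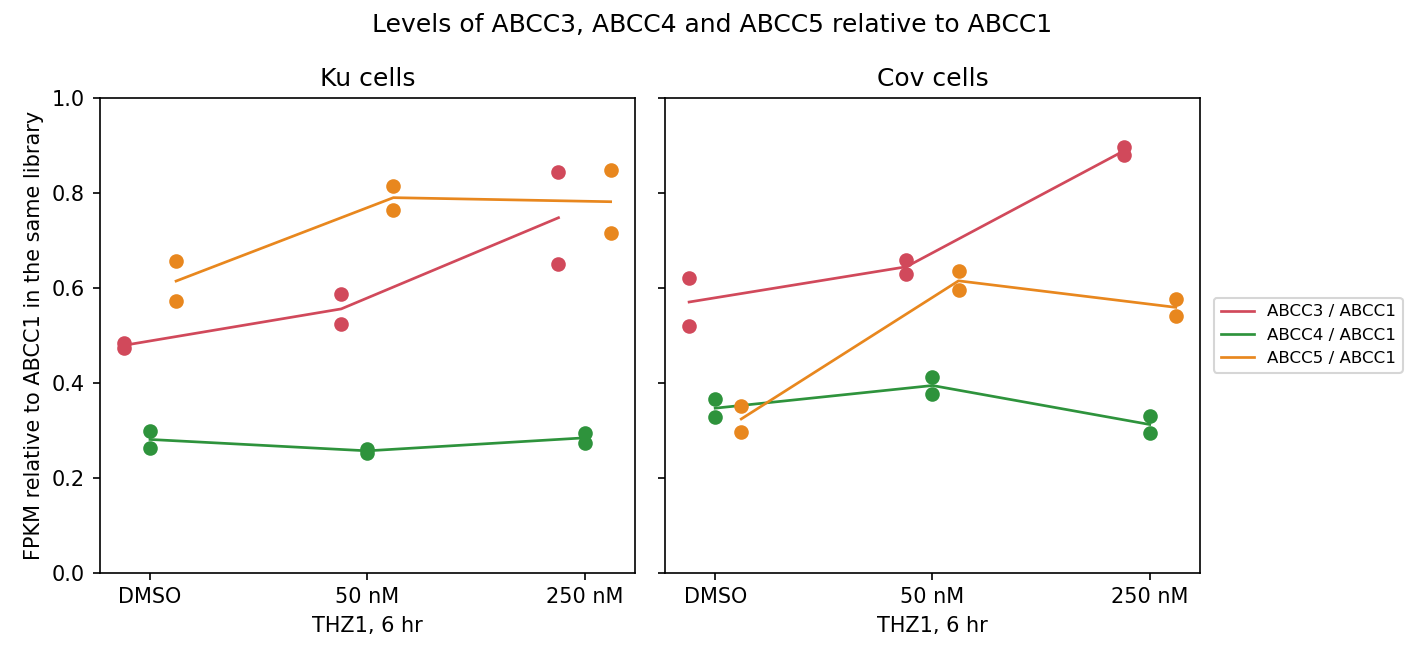
FPKM of ABCC3, ABCC4 and ABCC5 divided by that of ABCC1 in the same library, by THZ1 dose, in Ku cells (left) and Cov cells (right). Points are libraries and lines join the means of 2. The ABCC5 ratio in Cov goes from 0.352 and 0.296 in DMSO to 0.595 and 0.635 at 50 nM, and the ABCC4 ratio at 250 nM overlaps that in DMSO.

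ABCG2 encodes BCRP, which works as a dimer and exports topoisomerase inhibitors and many kinase inhibitors. In Cov it was at 1.72 and 1.79 FPKM in DMSO, 0.782 and 1.11 at 50 nM, and 0.753 and 0.603 at 250 nM. Ku libraries had 0.286 and 0.334 FPKM in DMSO, 0.188 and 0.210 at 50 nM, and 0.177 and 0.1504 at 250 nM. The Cov libraries were 5.74 to 16.8 times the floor of their library and the Ku libraries 1.76 to 2.80 times. The ABCG2 difference in Cov at 250 nM was -0.72 (SE 0.103, limma adjusted p = 0.000312, 0.12 and 0.36 under the other scalings), called lower with the limit given above, and the mean was 38.7% of that in DMSO. The difference understates the ratio because 1 was added to low values. The call was lost without Cov DMSO replicate 1 (adjusted p = 0.00184), DMSO replicate 2 (0.00247) or 250 nM replicate 2 (0.00211). At 50 nM in Cov the difference of -0.51 (adjusted p = 0.00236) was not called. It was called without 50 nM replicate 2 (-0.63, adjusted p = 0.00042), which is 1 of the 3 libraries through which ABCG2 passed the minimum.

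ABCB1 and ABCC2 gave little signal. ABCB1 was listed at the floor in all 6 Ku libraries, 0.118 and 0.119 FPKM in DMSO and 0.0783 and 0.0822 at 250 nM, so its values in Ku are those of the floor. In Cov ABCB1 was at 0.320 and 0.350 FPKM in DMSO, 0.210 and 0.207 at 50 nM, and 0.182 and 0.183 at 250 nM, or 1.74 to 3.18 times the floor. ABCC2 encodes MRP2, the apical exporter of conjugated bilirubin. It was at 0.432 and 0.259 FPKM in Ku DMSO libraries and 0.122 and 0.168 at 250 nM, and at 0.4004 and 0.622 in Cov DMSO libraries and 0.264 and 0.247 at 250 nM. Neither gene entered the tests. Whether such values stand for transcripts of either gene cannot be read from FPKM this close to the floor.

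The summed level of the 7 transporters was 79.7 ± 7.67 FPKM in Ku DMSO libraries, 63.4 ± 5.03 at 50 nM and 42.2 ± 4.18 at 250 nM (SD, n = 2 each). In Cov it was 71.1 ± 1.82, 39.4 ± 0.343 and 33.5 ± 0.934 FPKM. The sum at 250 nM was 52.9% of that in DMSO in Ku and 47.1% in Cov, on the spike-in scale. ABCC1, ABCC3 and ABCC5 together made up 81.1% to 90.0% of it in every library.

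The genes whose pattern over the 8 treated libraries was nearest to that of each transporter were found by the root mean square difference of log2(FPKM + 1) minus the DMSO mean of the line. For ABCC1 they were CC2D1A (0.0639), MED12 (0.0640) and TMBIM1 (0.0662), beside a median of 0.499 over the other 14250 active genes. For ABCC4 they were KDELR2 (0.0518), CPNE3 (0.0552) and NIPSNAP3A (0.0554), beside 0.485. For ABCC3 they were UBA7 (0.0743), TMEM198B (0.0822) and SGSM2 (0.109), beside 0.590. For ABCC5 they were CTSL2 (0.102), LOC646626 (0.112) and LRP5L (0.114), beside 0.679. The nearest genes of ABCC5 lay farther from it than those of ABCC1 and ABCC4 did, and no test was made on this measure.

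Of 21 other ABCB, ABCC and ABCG genes, 11 were active, and 7 fell at 250 nM in Ku and 8 in Cov, beside 68.6% and 84% of all active genes, with medians of -0.88 and -1.04 that turned to 0.34 and 0.15 by median-of-ratios and 0.66 and 0.45 by equal medians. At 50 nM 1 and 7 fell, beside 11.3% and 70.5% of all active genes, and between the doses 0 and 0, beside 36% and 24.4%. TAP2 and TAP1, which carry peptides into the endoplasmic reticulum, were among the highest of them in DMSO. TAP2 was at 33.6 FPKM in Ku DMSO libraries and 40.6 in Cov, and fell at 250 nM with differences of -0.89 (limma adjusted p = 0.000317) and -1.13 (2.22e-05) on the spike-in scale, but turned to 0.51, called higher, and 0.43 by median-of-ratios, and was called higher in both lines by equal medians (1.02 and 0.87). TAP1 also fell (-1.43 and -1.55), with -0.19 and -0.03 by median-of-ratios and 0.26 and 0.41 by equal medians, none called. Of 16 ABCA and ABCD genes, most of which move lipids, 9 were active. Of these 4 fell in Ku and 5 in Cov at 250 nM, beside the same 68.6% and 84% (medians -0.64 and -0.81, positive under both other scalings). With 50 nM 0 and 4 fell, beside the same 11.3% and 70.5%, and between the doses 2 and 1, beside the same 36% and 24.4%. ABCD3, a peroxisomal fatty acid importer, was at 70.9 FPKM in Ku DMSO libraries and 25.8 in Cov, and fell at 250 nM in both (-1.09 and -1.37). ABCD4, a lysosomal cobalamin transporter, also fell in both (-0.89 and -1.32). By median-of-ratios neither was called (0.34 and 0.14 for ABCD3, 0.43 and 0.06 for ABCD4), and by equal medians both were called higher in Ku (0.85 and 0.90). ABCA4 was at 23.8 FPKM in Ku DMSO libraries and 0.280 in Cov, and fell by 0.94 in Ku, with 0.43 by median-of-ratios, not called, and 0.93 by equal medians, called higher.

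All 4 ABCE and ABCF genes fell at 250 nM in both lines, beside 68.6% of all active genes in Ku and 84% in Cov. They encode ATPases without membrane domains that act in translation. Their medians of -1.43 in Ku and -1.87 in Cov were -0.01 and -0.29 by median-of-ratios and turned to 0.50 and 0.16 by equal medians. At 50 nM 1 fell in Ku and 4 in Cov, beside 11.3% and 70.5% of all active genes. Between the doses 4 and 3 fell, beside 36% and 24.4%. ABCF2 went from 88.9 to 35.5 FPKM in Ku and from 144 to 59.1 in Cov between DMSO and 250 nM, ABCF1 from 77.0 to 26.5 and from 82.1 to 21.7, and ABCE1, the ribosome recycling factor, from 61.3 to 23.2 and from 95.5 to 25.6. None of these 3 was called lower under the other scalings, and ABCF2 was called higher by equal medians (0.65 and 0.78). ABCF3, added after its values were seen, went from 33.0 to 5.87 FPKM in Ku (-2.30) and from 37.7 to 6.39 in Cov (-2.39). It stayed called lower by median-of-ratios (-0.96 and -0.88) but not by equal medians (-0.47 and -0.45).

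**Figure D4:**
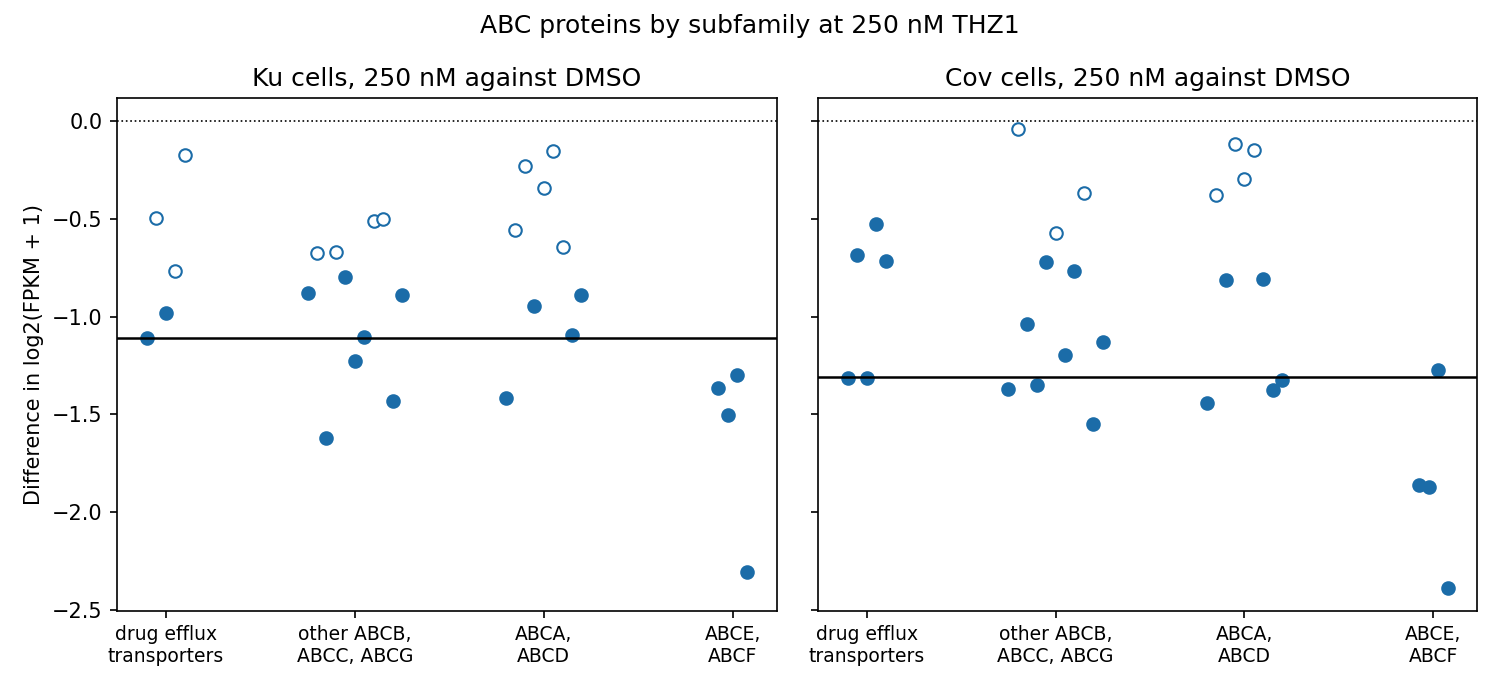
Difference in log2(FPKM + 1) at 250 nM THZ1 against DMSO for every active ABC gene, by subfamily group, in Ku cells (left) and Cov cells (right), on the spike-in scale. Each point is a gene, filled where called lower, and the black line is the median of all active genes. The 4 ABCE and ABCF genes lie between -2.30 and -1.30 in Ku and between -2.39 and -1.27 in Cov. Median-of-ratios scaling turns the medians of the other 3 groups positive in both lines.

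Genes that bring drugs in, modify them or hold the pumps in place were counted by the same test. Of 20 drug uptake carriers 11 were active, and 8 fell in Ku and 10 in Cov at 250 nM, beside 68.6% and 84% of all active genes. At 50 nM 3 and 9 fell, beside 11.3% and 70.5%, and between the doses 1 and 1, beside 36% and 24.4%. Their medians at 250 nM, -1.13 and -1.38, were -0.39 and 0.01 by median-of-ratios and 0.07 and 0.28 by equal medians. The carriers counted include SLC22A5 and SLC46A1, whose means were above 1 FPKM in DMSO alone. SLC29A1 and SLC29A2 encode the equilibrative nucleoside carriers that take up gemcitabine. SLC29A2 went from 28.9 to 5.76 FPKM at 50 nM in Ku, a fall of 2.15 (limma adjusted p = 0.000223), and from 38.1 to 11.2 in Cov, a fall of 1.68 (2.13e-05). By median-of-ratios the values at 50 nM were -1.60, called lower, and -0.69, not called, and by equal medians -1.45 and -0.51, neither called. At 250 nM SLC29A2 fell to 6.08 FPKM in Ku (-2.08) and 13.6 in Cov (-1.42). In Ku this was -0.74 and -0.25 under the other scalings, not called, and in Cov it turned to 0.13 by median-of-ratios and to 0.57, called higher, by equal medians. SLC29A1 fell at 250 nM (-1.03 in Ku and -1.24 in Cov), as did SLCO4A1, an organic anion carrier (-1.13 and -1.56). By median-of-ratios these were 0.38 and 0.34 for SLC29A1 and 0.15 and -0.04 for SLCO4A1, none called, and SLC29A1 was called higher in Ku by equal medians (0.88). Of 6 genes listed as other drug and metal exporters, a list that also holds MVP, which encodes no membrane pump, 5 were active. At 250 nM 3 fell in Ku and 4 in Cov, beside the same 68.6% and 84%. At 50 nM 0 and 4 fell, beside 11.3% and 70.5%, and between the doses 2 and 1, beside 36% and 24.4%. The medians of this list at 250 nM, -0.60 and -0.71, turned to 0.29 and 0.25 by median-of-ratios. The major vault protein gene MVP fell at 250 nM in both lines (-1.04 and -1.17), with 0.37 and 0.35 by median-of-ratios, not called, and was called higher in Ku by equal medians (0.88). SLC47A1 was at 4.41 FPKM in Cov DMSO libraries and fell by 0.63 in Cov at 250 nM, but was called higher there by median-of-ratios (0.60) and by equal medians (0.95).

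Glutathione conjugation genes make some of the substrates of some ABCC pumps. Of 18 listed 17 were active, and 8 fell in Ku and 15 in Cov at 250 nM, beside 68.6% and 84% of all active genes. At 50 nM 0 and 9 fell, beside 11.3% and 70.5%, and between the doses 5 and 2, beside 36% and 24.4%. Their medians at 250 nM, -0.59 and -0.76, turned to 0.74 and 0.64 by median-of-ratios, with 7 genes called higher and 1 lower in each line. By equal medians they turned to 1.26 and 1.06, with 14 and 13 called higher and 0 and 1 lower. GCLC and GCLM were added after their values were seen. On the spike-in scale GCLC went from 7.81 to 1.36 FPKM in Ku and from 24.1 to 2.11 in Cov at 250 nM. GCLM went from 83.2 to 20.3 and from 11.7 to 2.59. GSTP1 was at 676 FPKM in Ku DMSO libraries and 1135 in Cov, and fell at 250 nM in both (-0.60, limma adjusted p = 0.000111, and -0.74, adjusted p = 0.000308), but was called higher in both by median-of-ratios (0.85 and 0.87) and by equal medians (1.38 and 1.33). GSTK1 and MGST1 had differences of -0.33 and -0.29 in Ku, not called, and fell in Cov (-0.72 and -0.96), but both were called higher in Ku under both other scalings. In Cov GSTK1 was called higher under both (0.88 and 1.34) and MGST1 by equal medians (1.10). Of 7 membrane scaffold genes 6 have a row and 5 were active, and 4 fell in Ku and 5 in Cov at 250 nM, beside the same 68.6% and 84%. At 50 nM 0 and 3 fell, beside the same 11.3% and 70.5%, and between the doses 3 and 2, beside the same 36% and 24.4%. EZR, MSN and CAV1 encode ezrin, moesin and caveolin-1. EZR fell at 250 nM (-1.53 and -2.07), as did CAV1 (-1.57 and -1.33), while MSN had -0.43 in Ku, not called, and fell by 0.97 in Cov. By median-of-ratios EZR and CAV1 were not called in either line, and MSN was called higher in both (1.03 and 0.64). By equal medians CAV1 was called higher in Cov (0.74). The medians of this list, -1.53 and -1.44, were -0.07 and 0.14 by median-of-ratios and 0.45 and 0.59 by equal medians.

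Of 25 genes listed as transcription factors linked to efflux pump genes, 21 were active. The list also holds KEAP1, which is not itself a transcription factor. KEAP1 went from 48.6 to 3.27 FPKM in Ku and from 45.2 to 4.83 in Cov between DMSO and 250 nM, and is kept in these counts. At 250 nM 19 fell in Ku and 19 in Cov, beside 68.6% and 84% of all active genes, at 50 nM 4 and 17, beside 11.3% and 70.5%, and between the doses 16 and 10, beside 36% and 24.4%. Their medians at 250 nM were -2.06 in Ku and -1.74 in Cov, -0.98 and -0.21 by median-of-ratios, and -0.56 and 0.02 by equal medians. By median-of-ratios 11 stayed called lower in Ku and 8 in Cov, with 2 called higher in each line, and by equal medians 9 and 5 stayed called lower, with 2 and 4 called higher. MYC fell from 78.2 to 3.21 FPKM in Ku and stayed called lower under both other scalings (-2.93 and -2.46). In Cov it fell from 173 to 43.5 FPKM, with -0.37 and 0.09 under the other scalings, not called. HIF1A fell on the spike-in scale (-0.92 in Ku and -1.74 in Cov), but was called higher in Ku by median-of-ratios and equal medians (0.53 and 1.04) and not called in Cov (-0.15 and 0.30). YBX1, at 1575 and 1558 FPKM in DMSO, had -0.38 in Ku, not called, and fell by 0.74 in Cov, but was called higher in both by median-of-ratios (1.08 and 0.87). On the spike-in scale EGR1 was the only gene of these lists called higher in any comparison. It rose in Cov at 250 nM against DMSO by 0.71 (SE 0.1003, limma adjusted p = 0.000285) and against 50 nM by 1.25. In Ku it fell at both doses against DMSO.

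Markers of epithelial and ovarian carcinoma cells fell in 9 of 15 cases in Ku and 14 of 15 in Cov at 250 nM, beside 68.6% and 84% of all active genes. At 50 nM 3 and 11 fell, beside 11.3% and 70.5%, and between the doses 8 and 4, beside 36% and 24.4%. Their medians at 250 nM, -1.43 and -1.08, turned to 0.03 and 0.11 by median-of-ratios. Members then went both ways, with 5 called lower and 2 higher in Ku and 3 lower and 3 higher in Cov. SOX17, PAX8, EMX2 and WT1 were added after their values were seen. SOX17 went from 143 to 1.08 FPKM in Ku and from 117 to 10.7 in Cov, PAX8 from 136 to 12.6 and from 124 to 16.8, and EMX2 from 41.8 to 3.33 and from 54.4 to 6.72. These 3 stayed called lower in both lines under both other scalings. WT1 went from 56.8 to 2.44 FPKM in Ku and stayed called lower there under both. KRT18 was at 2135 FPKM in Ku DMSO libraries and 792 in Cov, and KRT7 at 4.61 and 1355. Under both other scalings KRT8 (0.93 and 1.39) and KRT18 (0.65 and 1.11) were called higher in Cov at 250 nM, and KRT7 was called higher in Ku (0.91 and 1.34). Of the 8 active markers of other cell types 2 fell in Ku and 5 in Cov at 250 nM (medians -0.48 and -0.95, positive by median-of-ratios), beside the same 68.6% and 84%. At 50 nM 0 and 4 fell, beside the same 11.3% and 70.5%, and between the doses 0 and 0, beside the same 36% and 24.4%. COL1A2 went from 42.2 to 21.8 FPKM in Cov, ACTA2 from 16.9 to 8.03 in Ku, and CDH5 from 8.23 to 4.61 in Ku and 7.75 to 3.04 in Cov.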

How the data were processed

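RNA-seq data of 12 libraries, 2 for each of 3 treatments in 2 cell lines, were analysed. RNA was normalized by cell count and mixed with ERCC spike-in RNAs before polyA-selected stranded libraries were made and sequenced in 75-base single-end reads. The reads were aligned by the authors with HISAT to hg19, and Cuffnorm from the Cufflinks package gave FPKM (versions not given in the sources used here), which the authors rescaled to the ERCC RNAs before they deposited a table for each line. Sequencing depth cannot be read from these FPKM, so counting intervals are not given.

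The 92 ERCC rows were left out. Active genes were those above 1 FPKM in at least 1 library. Linear models for each line alone (limma 3.58.1, R 4.3.3, two-sided, eBayes with trend) were fitted to log2(FPKM + 1) in 3 groups of 2. P-values were Benjamini-Hochberg adjusted over 14251 active genes, and calls needed an adjusted p under 0.001 and a difference beyond 0.5. A count test was not run because the values are FPKM. The alternatives are named in the closing section. The named transporters and gene lists were chosen with earlier results of these data known. From each other list the 3 genes with the highest DMSO mean were named, plus any called higher, and some of these are not reported here. For each transporter above 1 FPKM in DMSO in both lines, the 3 nearest genes were named. Markers whose levels are given to describe the cells were chosen after their values were seen. Gene positions came from GENCODE on GRCh37, which matched 95.39% of active genes, 972 of them through a synonym. Promoters came from RefSeq (GRCh38.p14) and were placed on GRCh37 by exact match. ABCC1 and ABCC3 had no entry. Figures were drawn with matplotlib.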

Additional observations from a re-analysis of the deposited data

Results flagged for a closer look

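EGR1, an immediate early transcription factor and the only gene of the lists called higher on the spike-in scale, moved in opposite directions in the 2 lines at 250 nM. In Ku cells it was at 23.2 and 20.7 FPKM in DMSO, 5.69 and 5.65 at 50 nM, and 2.03 and 3.02 at 250 nM, and it fell at 250 nM, with a difference of -2.71 on the log2(FPKM + 1) scale (limma adjusted p = 2.25e-05). In Cov cells it was at 7.40 and 6.96 FPKM in DMSO, 4.89 and 4.32 at 50 nM, and 12.1 and 12.6 at 250 nM, and it rose at 250 nM by 0.71 (limma adjusted p = 0.000285). Every treated Ku library lay below the Ku DMSO libraries, and both Cov libraries at 250 nM lay above the Cov DMSO libraries. The directions were kept under the other scalings, with -1.48 and -1.03 in Ku and 2.14 and 2.54 in Cov for median-of-ratios and equal medians. The difference between the lines was not tested, because their tables were normalized separately.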

How the results depend on the processing

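A pseudocount of 0.1, a minimum FPKM of 10 (which leaves out ABCG2) and a minimum on condition means changed no direction or call of a single transporter. Scaling changed most. Log2 differences are listed for ABCC1, ABCC3, ABCC4, ABCC5 and ABCG2 in that order. With equal medians they turned to 0.24, 0.42, 0.10, 0.57 and 0.0090 in Ku at 50 nM, 0.79, 1.35, 0.73, 1.10 and 0.21 at 250 nM, and 0.55, 0.93, 0.63, 0.53 and 0.20 between doses, and in Cov to 0.12, 0.28, 0.27, 0.92 and 0.15, then 0.66, 1.24, 0.46, 1.31 and 0.36, and for ABCC1, ABCC4, ABCC5 and ABCG2 between doses 0.53, 0.20, 0.39 and 0.21. With median-of-ratios scaling they turned in Ku to 0.095, 0.29 and 0.44 for ABCC1, ABCC3 and ABCC5 at 50 nM, 0.28, 0.86, 0.27, 0.60 and 0.10 for all 5 at 250 nM, and 0.19, 0.58, 0.30, 0.17 and 0.11 between doses. In Cov they turned to 0.11, 0.10, 0.76 and 0.062 for ABCC3, ABCC4, ABCC5 and ABCG2 at 50 nM, 0.22, 0.81, 0.069, 0.90 and 0.12 for all 5 at 250 nM, and 0.28, 0.14 and 0.060 for ABCC1, ABCC5 and ABCG2 between doses. Under both scalings 0 transporters were called lower in Ku at 250 nM, in Ku between doses and in Cov at 50 nM and 250 nM. With equal medians 4 in Ku and 3 in Cov were called higher at 250 nM, and with median-of-ratios scaling 1 in Cov. The median difference of all active genes at 250 nM was 0.00 in Ku and 0.01 in Cov by median-of-ratios, which centres it by construction, and 0.29 and 0.31 by equal medians.

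The count called lower, here over the 5 active transporters with ABCG2, also moved in other settings. In Ku at 250 nM, 2 became 1 with no minimum FPKM, with a fit of the 2 groups compared, with the replicate number as a block, and with a log2 difference beyond 1. In Ku between doses, 1 became 0 with no minimum, without the eBayes trend and beyond 1, and 2 at an adjusted p under 0.05, where 0 became 1 in Ku at 50 nM and in Cov between doses, 2 became 3 in Ku at 250 nM and 3 became 4 in Cov at 50 nM. In Cov at 50 nM, 3 became 1 beyond 1. In Cov at 250 nM, 5 became 3 with no minimum, where ABCC5 and ABCG2 lost the call. There 5 became 2 beyond 1 and 2 with the replicate block, where ABCC3, ABCC5 and ABCG2 lost it. Deviations of same-numbered libraries from their group means correlated between -0.0703 and 0.0282, so the numbers do not show a pairing of the replicates. Over all active genes the block took genes called lower in Ku at 50 nM from 1607 to 989 and in Cov between doses from 3474 to 1130.

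With each library left out in turn, the count called lower ranged from 1 to 2 in Ku at 250 nM, was 0 in every case in Ku between doses, and ranged from 1 to 4 in Cov at 50 nM and 2 to 5 in Cov at 250 nM. The ABCC5 difference in Ku at 50 nM ranged from -0.24 to 0.062, turning positive without DMSO replicate 1 (0.062) and without 50 nM replicate 2 (0.0050). Over all active genes the count called lower ranged, with each library left out, from 6 to 131 in Ku at 50 nM (1607 with all), 6085 to 9044 at 250 nM (9774) and 791 to 4599 between doses (5132). In Cov it ranged from 4314 to 9929 at 50 nM (10042), 10451 to 12341 at 250 nM (11971) and 1518 to 3974 between doses (3474). A fit of the 2 groups compared called 9 in Ku at 50 nM. The causes of these changes were not tested. With no minimum FPKM, 23621 rows enter the adjustment and 3 genes were called lower in Ku at 50 nM. ABCB1, at the floor in all 6 Ku libraries, then had a difference of -0.05 in Ku at 250 nM with a limma adjusted p of 0.000339, which is the movement of the floor.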
